A study of Mus musculus with 8 samples.

Results

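The comparison described here sets mouse peritoneal macrophages kept with histidine-rich glycoprotein (HRG) for 24 h against such cells kept for 24 h in medium alone. It rests on 4 of the 8 arrays of the series, 2 with HRG and 2 basal, chosen by the labelled treatment and time, and it was read across all 19938 named genes on the arrays. The other 4 arrays hold the same treatments at 6 h, 2 with HRG and 2 basal, and serve here for the spread between arrays and for the test of whether the 24 h difference differed from the 6 h difference. The cells came from wild-type C57/BL6 mice by peritoneal lavage, were pooled from 10 animals, and spent a night in RPMI with 5% FCS before treatment. Recombinant HRG was given at 1 µg/ml, and nothing in the labels says that the basal wells received a control protein. The arrays of a group are not said to come from separate pools or cultures, so p-values measure the spread between these arrays, which may be technical. RNA was amplified with a whole-transcript kit and hybridised to an Affymetrix gene array. Values are log2 signals after robust multi-array averaging (RMA), so a difference of 1 is a doubling, and levels are not compared between genes.

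HRG is a plasma protein, made mainly by the liver, that binds heparan sulphate, haem, zinc, plasminogen, thrombospondin, immunoglobulin and complement C1q, and that is known to coat dying cells and to shift tumour macrophages away from a tumour-promoting state. Resident peritoneal macrophages clear dying cells and opsonised particles through complement receptors, Fc receptors for immunoglobulin, lectins and receptors for phosphatidylserine. C1q, the recognition protein of the classical complement pathway, is made largely by macrophages rather than by the liver. The transcription factor NRF2, held in check by KEAP1, pairs with small MAF proteins on antioxidant response elements and drives detoxifying enzymes, glutathione synthesis and NADPH supply.

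The cells carried the defining macrophage markers at high level in every array. The mean log2 signal of 9 macrophage markers was 12.50 and 12.48 in the basal arrays at 24 h and 12.81 and 12.78 in the HRG arrays. Markers of other cells were read as well. Array medians lay between 7.18 and 7.29, so averages close to these do not show that such cells were present. The 11 B cell markers averaged 8.61 and 8.25 in the basal arrays at 24 h and 9.14 and 8.87 in the HRG arrays, against 9.25 and 9.22 in the basal arrays at 6 h. The 10 mast cell markers averaged 8.85 and 9.07 in the basal arrays and 9.62 and 9.31 in the HRG arrays. The B cell and mast cell averages were thus lower in both basal arrays at 24 h than in either HRG array. The same order held for 11 dendritic cell markers, at 7.05 and 6.89 in the basal arrays against 7.42 and 7.17, and for 5 erythroid and platelet markers, at 8.71 and 8.57 against 9.07 and 9.10, of which Ppbp alone passed. Neutrophil markers stood at 7.21 and 7.26 against 7.16 and 7.24, and those of T cells and NK cells at 7.02 and 6.72 against 7.03 and 6.99. Eosinophil markers stood at 7.29 and 7.16 against 7.14 and 7.20. Mesothelial and fibroblast markers, at 7.28 and 7.31 against 7.33 and 7.42, were also lower in both basal arrays, as were the macrophage markers. In a pooled RNA sample, fewer cells of a type and less RNA per cell cannot be told apart.

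**Figure D1:**
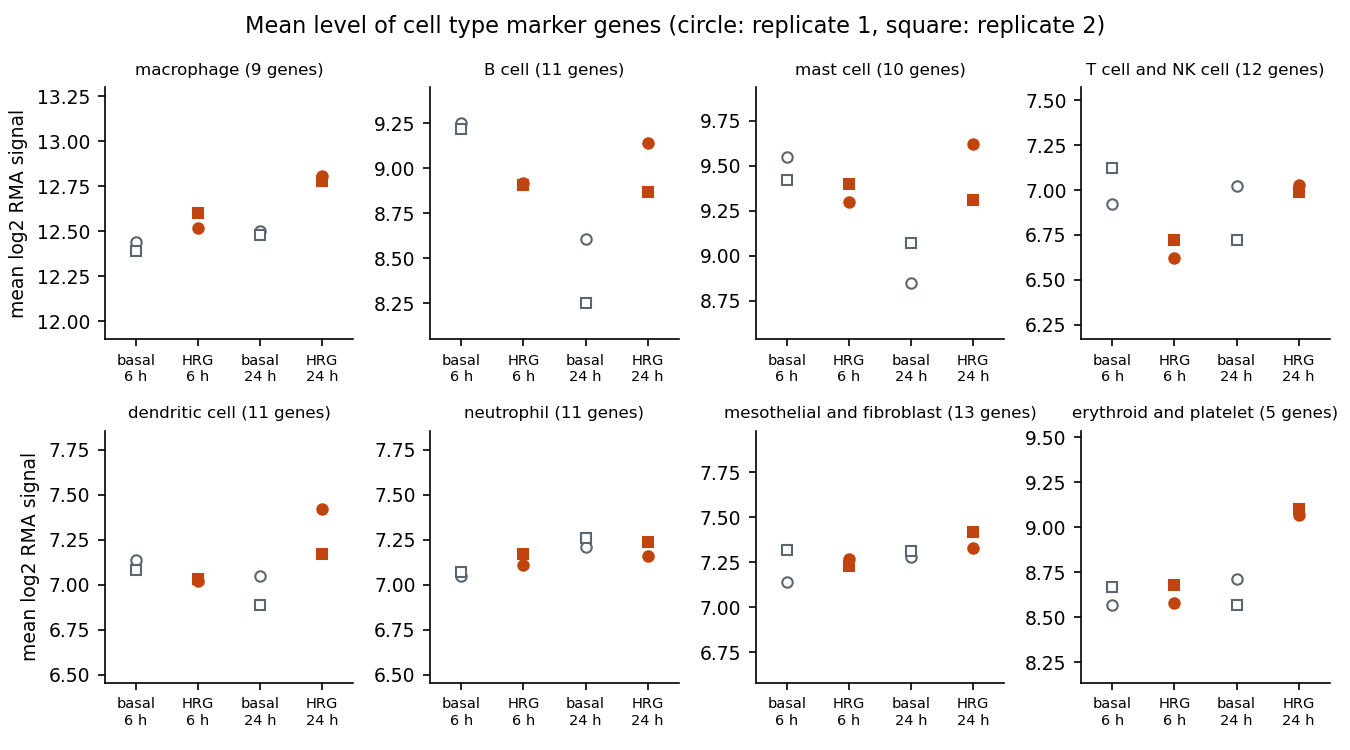
Mean log2 RMA signal of the marker genes of 8 cell types, 1 point per array, basal arrays open and HRG arrays filled, at 6 and 24 h; all panels have axes of the same span. The B cell panel falls from 9.25 and 9.22 in the basal arrays at 6 h to 8.61 and 8.25 at 24 h, while the HRG arrays at 24 h stand at 9.14 and 8.87.

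At 24 h 485 genes rose with HRG and 209 fell (limma, adjusted p under 0.05), which is 2.43% and 1.05% of the 19938 genes tested. Of these, 66 rose and 36 fell by 2-fold or more. With the arrays' lower quartiles added to the fit the counts were 646 and 453. The median difference of all genes was -0.02, the middle 80% of genes lay between -0.18 and 0.20, and the smallest difference called was 0.37. Of all 19938 genes 8714 were higher with HRG. Counts of list members below are to be read beside this number and the called shares of 2.43% and 1.05%. Some genes, such as Itgax and Ms4a1, belong to several lists and are counted in each. The arrays of a group did not weigh equally. Without HRG replicate 1 the counts were 110 and 72, without HRG replicate 2 they were 313 and 91, and without basal replicate 2 they were 214 and 84. Among the genes that rose, 66.8% had the higher basal value in replicate 1, against 51.5% of all genes, and among those that fell 83.7% had the lower basal value there. HRG replicate 1 was the higher of the HRG arrays in 82.5% of the genes that rose, against 48.6% of all genes. The part of these array differences in the results was not tested beyond the fits that leave out an array. Where such a fit ends the call of a gene given with its own 24 h difference below, its adjusted p is given.

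**Figure D2:**
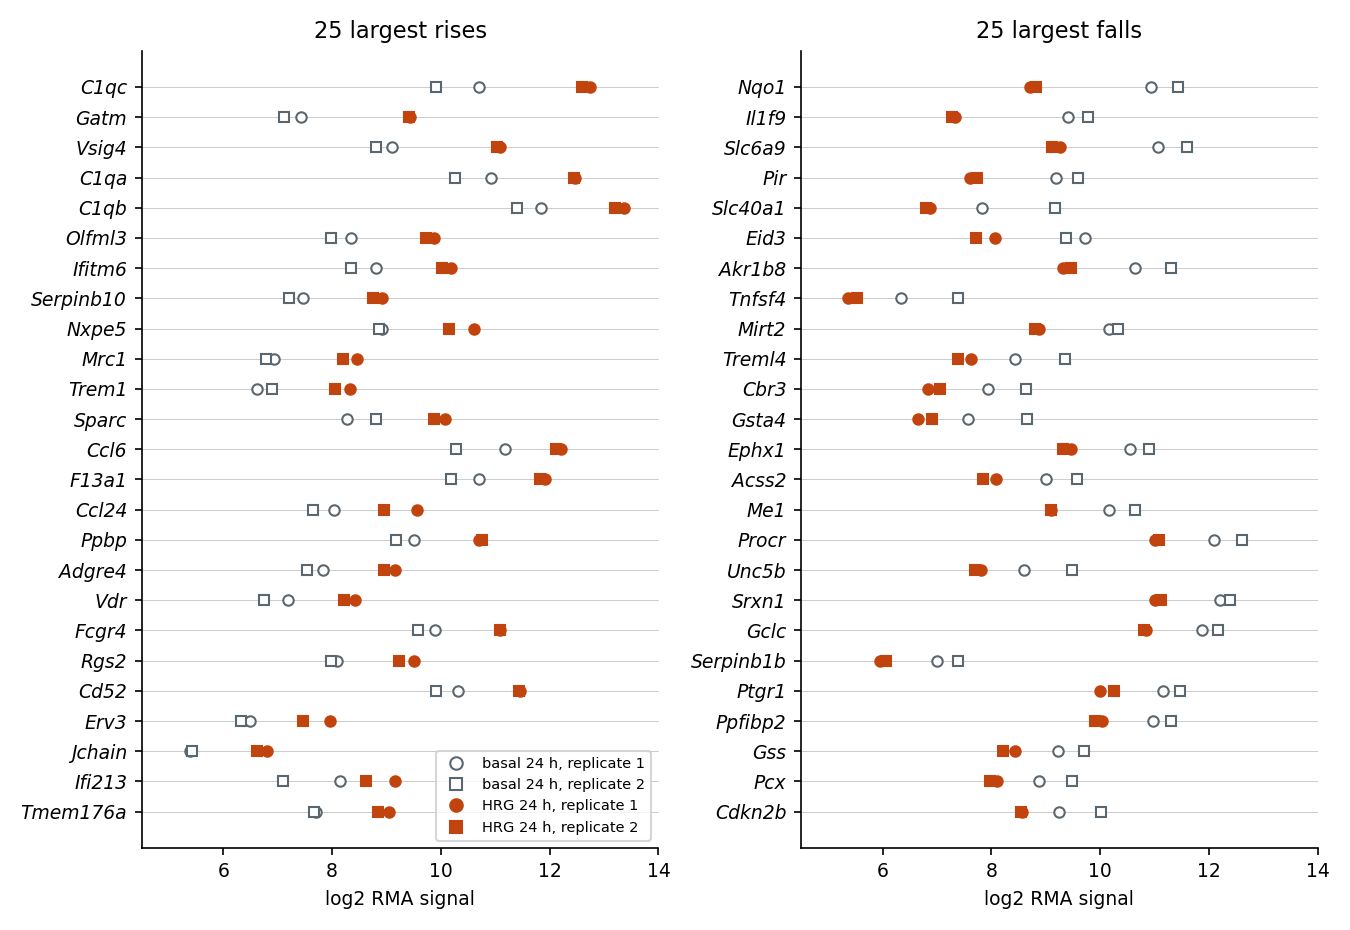
Log2 RMA signal at 24 h of the 25 genes with the largest rise and the 25 with the largest fall among named genes that passed the threshold, 1 point per array (open basal, filled HRG; circle replicate 1, square replicate 2). C1qc leads the rises at 2.36 log2 units and Nqo1 the falls at -2.41, and in the falls the open circle of basal replicate 1 mostly lies nearer the HRG points than the open square.

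The 3 chains of C1q rose together and ranked among the 5 largest rises. C1qc, the C chain, read 10.70 and 9.92 in the basal arrays and 12.74 and 12.60 in the HRG arrays, a rise of 2.36 ± 0.19 (5.14-fold, adjusted p = 5.23e-05). C1qa measured 10.92 and 10.27 against 12.47 and 12.45 and rose by 1.87 ± 0.16 (3.65-fold, adjusted p = 7.15e-05). C1qb stood at 11.84 and 11.40 against 13.36 and 13.20 and rose by 1.66 ± 0.13 (3.16-fold, adjusted p = 5.23e-05). For all 3 chains the HRG arrays lay close together and above both basal arrays, while basal replicate 1 was above basal replicate 2. Of the 12 complement components measured, 4 rose and none fell, with a median difference of 0.36 against -0.02 for all genes. The fourth was C1s1, a serine protease of the C1 complex, at 5.10 and 5.05 against 5.63 and 5.74, a rise of 0.61 ± 0.09 (1.52-fold, adjusted p = 0.00345). Components of the later and alternative steps did not pass: C2 differed by 0.44 (adjusted p = 0.068), C4b by 0.28 (adjusted p = 0.166), factor B (Cfb) by 0.12 (adjusted p = 0.745) and properdin (Cfp) by 0.34 (adjusted p = 0.0751).

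Receptors for complement fragments and for immunoglobulin rose beside C1q. Of 12 complement receptors and regulators 6 rose and none fell, with a median of 0.61. Vsig4, the macrophage receptor for C3b and iC3b, stood at 9.10 and 8.81 in the basal arrays and 11.09 and 11.03 in the HRG arrays, a rise of 2.10 ± 0.15 (4.30-fold, adjusted p = 4.52e-05). Itgax, the alpha chain of complement receptor 4, measured 6.96 and 6.76 against 7.90 and 7.81 and rose by 1.00 ± 0.11 (1.99-fold, adjusted p = 0.000392). C5ar1, the receptor for the anaphylatoxin C5a, rose from 10.60 and 10.77 to 11.43 and 11.41, by 0.74 ± 0.10 (1.66-fold, adjusted p = 0.00214). The C3a receptor C3ar1 differed by 0.18 (adjusted p = 0.46) and Itgam, the alpha chain of complement receptor 3, by 0.31 (adjusted p = 0.138).

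Among 9 Fc receptors 3 rose and none fell, with a median of 0.35. Fcgr4, an activating receptor for IgG2a and IgG2b, measured 9.90 and 9.57 in the basal arrays and 11.08 and 11.08 in the HRG arrays, a rise of 1.34 ± 0.12 (2.54-fold, adjusted p = 7.42e-05), and the HRG arrays read alike. Fcgr1, the high-affinity IgG receptor, stood at 10.44 and 9.86 against 11.30 and 11.25 and rose by 1.13 ± 0.16 (2.18-fold, adjusted p = 0.00189). Fcgr3 differed by 0.42 (adjusted p = 0.0748), the inhibitory Fcgr2b by 0.25 (adjusted p = 0.264) and the shared signalling chain Fcer1g by 0.15 (adjusted p = 0.631). The third called member was the low-affinity IgE receptor Fcer2a, a gene of B cells as well as macrophages, at 6.82 and 6.46 against 7.37 and 7.18. The other called members of the complement receptor list were C5ar2, a second C5a receptor, which rose by 0.62 ± 0.11, Cd55, which speeds the decay of complement convertases and rose by 0.79 ± 0.14, and Cd93, a surface lectin once described as a C1q receptor, which rose by 0.61 ± 0.11. Calls that ended when 1 array was left out were Fcer2a (adjusted p = 0.316 without basal replicate 2, 0.348 without HRG replicate 1 and 0.0913 without HRG replicate 2), C5ar2 (adjusted p = 0.0605 without basal replicate 2 and 0.123 without HRG replicate 1), Cd55 (adjusted p = 0.0608 without basal replicate 2 and 0.11 without HRG replicate 1) and Cd93 (adjusted p = 0.0647 without basal replicate 2 and 0.114 without HRG replicate 1). The count of complement receptors was 3 without basal replicate 2 or HRG replicate 1, and that of Fc receptors was 5 without basal replicate 1.

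Receptors and bridging proteins for dying cells gave 7 rises and no fall among 19, with a median of 0.32. Itgb5, the beta chain of the vitronectin receptor that binds MFG-E8, read 8.65 and 8.61 in the basal arrays and 9.95 and 9.75 in the HRG arrays and rose by 1.22 ± 0.10 (2.33-fold, adjusted p = 6.47e-05). Stab1, a scavenger receptor that also binds phosphatidylserine, measured 9.21 and 9.04 against 9.95 and 9.77, a rise of 0.74 ± 0.11 (1.67-fold, adjusted p = 0.00214). Both genes had also risen at 6 h, by 0.84 and 0.74 (adjusted p = 0.00352 and 0.00705). Timd4, a phosphatidylserine receptor of resident macrophages, rose by 0.74 ± 0.11, the kinase receptor Mertk by 0.51 ± 0.10, its bridging ligand Pros1 by 0.55 ± 0.13, the bridge Mfge8 by 0.56 ± 0.12 and Cd300lf by 0.80 ± 0.14. These 5 were sensitive to single arrays: Timd4 (adjusted p = 0.0591 without HRG replicate 1), Mertk (adjusted p = 0.0872 without basal replicate 1, 0.07 without basal replicate 2 and 0.219 without HRG replicate 1), Pros1 (adjusted p = 0.275 without basal replicate 2 and 0.36 without HRG replicate 1), Mfge8 (adjusted p = 0.104 without basal replicate 1, 0.0591 without basal replicate 2 and 0.238 without HRG replicate 1) and Cd300lf (adjusted p = 0.0622 without basal replicate 2 and 0.12 without HRG replicate 1). The count was 2 without HRG replicate 1 and 4 without basal replicate 2. Mertk's relatives did not pass: Axl differed by 0.44 (adjusted p = 0.164) and Tyro3 by -0.14 (adjusted p = 0.776).

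Other surface receptors were read family by family. Of 14 scavenger receptors only Olr1, the receptor for oxidised low-density lipoprotein, passed, at 10.21 and 10.35 against 11.31 and 11.28, a rise of 1.02 ± 0.10 (2.02-fold, adjusted p = 0.000203), after a rise of 1.51 at 6 h (adjusted p = 0.000102). Cd36, Marco and Msr1 differed by -0.33, 0.28 and 0.18 (adjusted p = 0.172, 0.211 and 0.504). Of 20 C-type lectins 3 rose and 1 fell, against 2.43% and 1.05% of all genes. Mrc1, the mannose receptor, stood at 6.94 and 6.78 in the basal arrays and 8.46 and 8.21 in the HRG arrays and rose by 1.47 ± 0.12 (2.77-fold, adjusted p = 5.23e-05). Clec12a, an inhibitory receptor for crystals from dead cells, measured 9.88 and 9.87 against 10.90 and 11.22, a rise of 1.19 ± 0.12 (2.28-fold, adjusted p = 0.000203). Clec5a rose by 0.71 ± 0.14 and Clec4n, also called dectin-2, fell by 0.58 ± 0.14, but neither kept its call without single arrays: Clec5a (adjusted p = 0.0881 without basal replicate 2, 0.0921 without HRG replicate 1 and 0.112 without HRG replicate 2) and Clec4n (adjusted p = 0.0616 without basal replicate 1, 0.249 without basal replicate 2, 0.32 without HRG replicate 1 and 0.104 without HRG replicate 2).

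In the TREM family and its DAP12 adaptors 2 of 11 rose and 1 fell, against 2.43% and 1.05% of all genes. Trem1, which amplifies inflammatory signalling, read 6.62 and 6.89 in the basal arrays and 8.33 and 8.05 in the HRG arrays, a rise of 1.44 ± 0.12 (2.71-fold, adjusted p = 6.47e-05). Trem2, a lipid-sensing receptor, stood at 10.39 and 10.53 against 11.23 and 11.04 and rose by 0.67 ± 0.11 (1.59-fold, adjusted p = 0.00557). Treml4 went the other way, from 8.44 and 9.36 to 7.62 and 7.38 and fell by 1.40 ± 0.24 (2.64-fold, adjusted p = 0.00635). The call was lost for Trem2 (adjusted p = 0.0957 without HRG replicate 1) and Treml4 (adjusted p = 0.0562 without HRG replicate 1 and 0.0706 without HRG replicate 2). The count of rises was 1 without HRG replicate 1, and that of falls was 0 without HRG replicate 1 or HRG replicate 2 and 3 without basal replicate 1. Of 15 members of the MS4A family, membrane proteins of immune cells, 4 rose and none fell. Ms4a4c stood at 8.80 and 8.26 against 9.63 and 9.54 and rose by 1.06 ± 0.16 (2.08-fold, adjusted p = 0.00363), Ms4a6b by 0.87 ± 0.13, the B cell gene Ms4a1 by 0.80 ± 0.15 and the mast cell gene Ms4a2 by 0.64 ± 0.14. Each of the 4 lost its call without 1 array or another: Ms4a4c (adjusted p = 0.0606 without HRG replicate 1), Ms4a6b (adjusted p = 0.0588 without HRG replicate 1), Ms4a1 (adjusted p = 0.109 without basal replicate 2 and 0.171 without HRG replicate 1) and Ms4a2 (adjusted p = 0.0927 without basal replicate 1, 0.134 without basal replicate 2 and 0.299 without HRG replicate 1, difference 0.41). The MS4A count was 0 without HRG replicate 1 and 2 without basal replicate 2. Adgre4, a relative of F4/80, measured 7.83 and 7.54 against 9.15 and 8.96 and rose by 1.37 ± 0.15 (2.58-fold, adjusted p = 0.000377), whereas F4/80 itself (Adgre1) differed by 0.17 (adjusted p = 0.508).

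**Figure D3:**
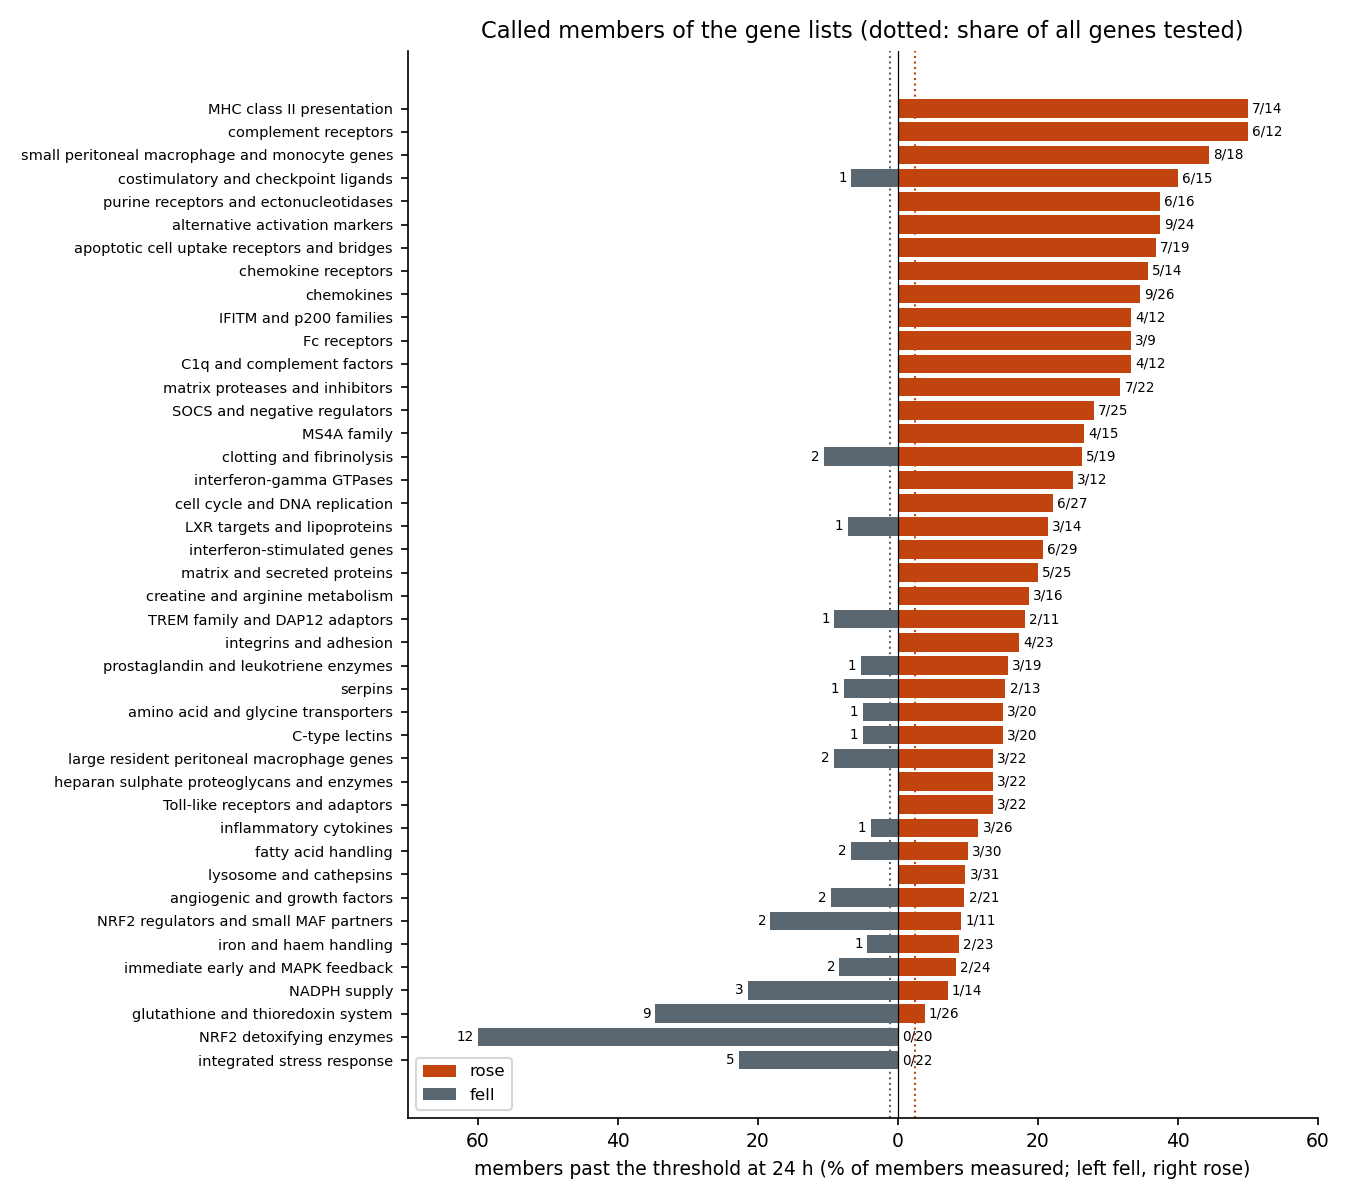
Share of the measured members of each gene list that rose (right) or fell (left) at 24 h past the threshold, for lists with 3 or more called members, with counts beside the bars; dotted lines mark the shares of all genes tested, 2.43% and 1.05%. The lists and their members were chosen with earlier results of these data known, so a bar beyond a dotted line is not a test. Marker lists of other cells are not drawn. A gene can belong to several lists. Among the lists drawn, MHC class II presentation (7 of 14) and complement receptors (6 of 12) have the longest bars to the right, and NRF2 detoxifying enzymes (12 of 20) the longest to the left.

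Of 20 detoxifying enzymes and transporters that NRF2 drives 12 fell and none rose, with a median difference of -0.62, against falls in 1.05% of all genes. Of the 20, 18 were lower with HRG, whereas 8714 of all 19938 genes were higher. Nqo1, a quinone reductase, stood at 10.93 and 11.43 in the basal arrays and 8.70 and 8.82 in the HRG arrays and fell by 2.41 ± 0.16 (5.33-fold, adjusted p = 2.9e-05). Pir (pirin), an iron-binding nuclear protein, measured 9.19 and 9.59 against 7.61 and 7.73 and fell by 1.72 ± 0.12 (3.29-fold, adjusted p = 4.52e-05). Akr1b8, an aldo-keto reductase, went from 10.64 and 11.31 to 9.31 and 9.47 and fell by 1.58 ± 0.17 (2.99-fold, adjusted p = 0.000323). The carbonyl reductase Cbr3 read 7.94 and 8.63 against 6.84 and 7.06 and fell by 1.34 ± 0.18 (2.52-fold, adjusted p = 0.00161). Ephx1, which opens epoxides, fell from 10.54 and 10.90 to 9.46 and 9.31, by 1.33 ± 0.14 (2.52-fold, adjusted p = 0.000296). In each of these 5 genes the basal arrays lay apart from each other by more than the HRG arrays did, with basal replicate 1 the lower. The groups did not overlap, which held for all 694 genes called at 24 h. Over all 19938 genes, called or not, they did not overlap in 3813 towards higher and 4199 towards lower. The export pump Abcc4 fell by 1.06 ± 0.14, the prostaglandin reductase Ptgr1 by 1.18 ± 0.13 and the aldehyde oxidase Aox1 by 0.80 ± 0.10. Hmox1, the haem oxygenase that NRF2 and BACH1 both govern, differed by only -0.09 (adjusted p = 0.846). The count of falls was 8 without basal replicate 2, 8 without HRG replicate 1, 9 without HRG replicate 2, and 12 in the other fits with 1 array left out.

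Enzymes of glutathione and thioredoxin metabolism followed, with 9 falls and 1 rise among 26 and a median of -0.26. Gclc and Gclm, the subunits of the enzyme that limits glutathione synthesis, read 11.88 and 12.16 against 10.84 and 10.81 and 13.30 and 13.44 against 12.50 and 12.60. They fell by 1.20 ± 0.11 (2.29-fold, adjusted p = 0.000118) and 0.82 ± 0.10 (1.77-fold, adjusted p = 0.000555). Gss, which completes glutathione, measured 9.23 and 9.70 in the basal arrays and 8.43 and 8.21 in the HRG arrays and fell by 1.15 ± 0.14 (2.22-fold, adjusted p = 0.000719). Srxn1, which repairs oxidised peroxiredoxins, fell from 12.20 and 12.39 to 11.01 and 11.13, by 1.23 ± 0.10 (2.34-fold, adjusted p = 5.23e-05). Txnrd1, the cytosolic thioredoxin reductase, stood at 11.78 and 12.04 against 10.80 and 10.91 and fell by 1.05 ± 0.11 (2.08-fold, adjusted p = 0.000288). The transferases Gsta3 and Mgst2 fell by 0.86 ± 0.11 and 0.71 ± 0.09, and catalase (Cat) fell by 0.72 ± 0.11. Gsta4 fell by 1.33 ± 0.25, with basal values of 7.57 and 8.66, and its value or call moved in fits without single arrays, as Gsta4 (adjusted p = 0.0235 without basal replicate 2, difference -0.79, 0.16 without HRG replicate 1 and 0.0506 without HRG replicate 2). Glutaredoxin (Glrx) was the 1 member that rose, by 0.54 ± 0.09, and the call was lost for Glrx (adjusted p = 0.0593 without basal replicate 2, 0.0553 without HRG replicate 1 and 0.0602 without HRG replicate 2). The cystine importer Slc7a11 differed by -0.40 (adjusted p = 0.0602) and peroxiredoxin 1 (Prdx1) by -0.27 (adjusted p = 0.343).

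Suppliers of NADPH gave 3 falls and 1 rise among 14, with a median of -0.01, close to that of all genes. Me1, the cytosolic malic enzyme, read 10.16 and 10.65 in the basal arrays and 9.09 and 9.10 in the HRG arrays and fell by 1.31 ± 0.15 (2.48-fold, adjusted p = 0.000461), and its second row on the array gave -1.31 as well. The pentose phosphate enzymes Taldo1 and Pgd fell by 0.75 ± 0.12 and 0.42 ± 0.09, and Aldh1l1, a folate enzyme, rose by 0.81 ± 0.14. These last calls depended on single arrays: Taldo1 (adjusted p = 0.0539 without HRG replicate 1), Pgd (adjusted p = 0.222 without basal replicate 2, 0.0504 without 6 h HRG replicate 1, 0.0504 without 6 h HRG replicate 2, 0.19 without HRG replicate 1 and 0.133 without HRG replicate 2) and Aldh1l1 (adjusted p = 0.0755 without basal replicate 2 and 0.13 without HRG replicate 1). Of 11 regulators and partners of NRF2 1 rose and 2 fell, with a median of -0.16. Nfe2l2, which encodes NRF2, differed by 0.21 (adjusted p = 0.395), Keap1 by -0.28 (adjusted p = 0.243) and the repressor Bach1 by -0.22 (adjusted p = 0.387). The falls were those of the partner Mafg and the adaptor Sqstm1. Mafg and Sqstm1 fell by 0.45 ± 0.09 and 0.43 ± 0.09, and both lost the call without single arrays: Mafg (adjusted p = 0.173 without basal replicate 2, 0.152 without HRG replicate 1 and 0.105 without HRG replicate 2) and Sqstm1 (adjusted p = 0.218 without basal replicate 2, 0.223 without HRG replicate 1 and 0.0989 without HRG replicate 2). Maf, a large MAF factor of macrophages, rose from 9.74 and 9.91 to 11.17 and 10.82, by 1.17 ± 0.12 (2.25-fold, adjusted p = 0.000249).

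The same genes were next read over both times. At 6 h none of the 20 detoxifying enzymes passed in either direction, against 86 rises and 163 falls among all 19938 genes. Their median difference was 0.09, against 0.02 for all genes. Nqo1 averaged 9.18 in the basal arrays at 6 h and 11.18 in those at 24 h, against 9.55 and 8.76 with HRG. Pir averaged 8.18 and 9.39 in the basal arrays and 8.23 and 7.67 with HRG. Ephx1 averaged 8.27 and 10.72 basal and 8.44 and 9.39 with HRG. The basal arrays at 24 h were thus the highest of the 4 groups for these genes, and with HRG Nqo1 and Pir were lower at 24 h than at 6 h, whereas Ephx1 was higher. The difference between the 24 h and 6 h effects was -2.78 for Nqo1 (adjusted p = 0.000426) and passed for 10 of the 20 detoxifying enzymes and 8 of the 26 glutathione and thioredoxin genes, all towards lower, against 0.451% of all genes.

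**Figure D4:**
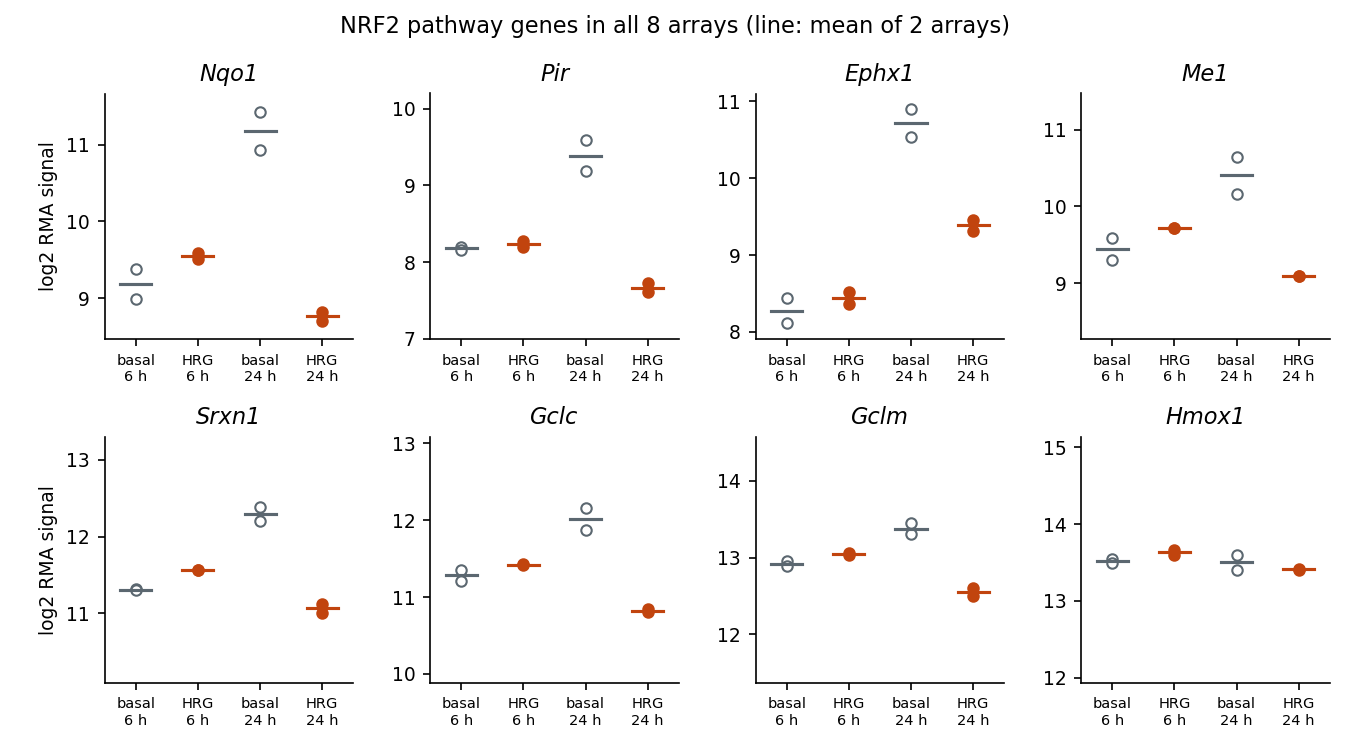
Log2 RMA signal of 8 genes of the NRF2 pathway in all 8 arrays (open basal, filled HRG, line at the mean of the 2 arrays); all panels have axes of the same span. In the first 7 panels the basal arrays at 24 h are the highest group, and in the Hmox1 panel the groups lie close together.

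Promoter windows, from 250 bases before to 50 after each annotated start in RefSeq (GRCm38.p6), were searched on both strands for the antioxidant response element core TGACNNNGC, which can overlap the AP-1 site TGACTCA. The stretches printed here belong to the 6 called falls of these lists that have a match before the start and are shown, 5′ to 3′ along the gene's strand with the core in capitals, so that the element can be seen in place. Where the core lies on the opposite strand, the capitals read GCNNNGTCA.
Pir: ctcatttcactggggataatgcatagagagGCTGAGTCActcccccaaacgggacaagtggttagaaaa
Abcc4, first start: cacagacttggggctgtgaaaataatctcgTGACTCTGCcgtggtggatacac
Abcc4, second start: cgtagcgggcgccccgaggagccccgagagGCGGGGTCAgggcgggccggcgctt
Me1: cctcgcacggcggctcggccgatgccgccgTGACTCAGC
Gclm: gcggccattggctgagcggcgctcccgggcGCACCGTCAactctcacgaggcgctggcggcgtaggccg
Gsta3: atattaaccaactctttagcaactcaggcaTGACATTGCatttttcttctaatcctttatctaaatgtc
Txnrd1: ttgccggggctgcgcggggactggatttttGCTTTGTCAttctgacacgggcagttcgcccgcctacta
The Pir stretch is chrX:164269187-164269255 on the plus strand, with the match opening 214 bases before the start. Abcc4 has a match at each of 2 annotated starts on the minus strand, at chr14:118676932-118676984 (23 bases before) and chr14:118706220-118706274 (25 bases before). The Me1 stretch is chr9:86695912-86695950 on the minus strand, and its match opens 6 bases before the start. Gclm lies at chr3:122245393-122245461 (plus, 134 bases before), Gsta3 at chr1:21240434-21240502 (plus, 121 bases before) and Txnrd1 at chr10:82859084-82859152 (plus, 92 bases before). The core was present in 12.4% of all 32851 windows. It was found in 16.7% of the genes that fell and in 19.7% of those that rose, against 15.2% of all tested genes with a window. Among the called falls with a window it occurred in 2 of 11 detoxifying enzymes, 4 of 7 glutathione and thioredoxin genes and 2 of 3 NADPH genes. Of these, Srxn1 and Pgd have a match only after the start, which is not printed. Windows of Nqo1, Akr1b8, Cbr3, Ephx1, Ptgr1 and Gss, among other called falls, held no match. Me1 and Txnrd1 also have annotated starts whose windows held none. A match describes letters in a window and not a bound site, and no test was made.

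Genes of MHC class II presentation gave 7 rises and no fall among 14, with a median of 0.56. H2-Aa, the alpha chain of I-A, read 9.78 and 9.12 in the basal arrays and 10.55 and 10.54 in the HRG arrays, a rise of 1.10 ± 0.16 (2.14-fold, adjusted p = 0.00304). Cd74, the invariant chain, measured 10.57 and 10.27 against 11.51 and 11.34 and rose by 1.00 ± 0.12 (2.00-fold, adjusted p = 0.000507). H2-DMa, which helps load peptide, stood at 8.25 and 8.10 against 8.98 and 8.84, a rise of 0.73 ± 0.10 (1.66-fold, adjusted p = 0.00214). H2-Ab1 and the lysosomal thiol reductase Ifi30 rose by 0.59 ± 0.10 and 0.52 ± 0.10, and H2-Eb1 and H2-Eb2 by 0.70 ± 0.16 and 0.76 ± 0.16. These 4 rested on single arrays: H2-Ab1 (adjusted p = 0.0635 without basal replicate 2 and 0.0679 without HRG replicate 1), Ifi30 (adjusted p = 0.127 without basal replicate 2, 0.0772 without HRG replicate 1 and 0.0977 without HRG replicate 2), H2-Eb1 (adjusted p = 0.211 without basal replicate 2, difference 0.42, 0.248 without HRG replicate 1 and 0.116 without HRG replicate 2) and H2-Eb2 (adjusted p = 0.13 without basal replicate 2, difference 0.45, 0.214 without HRG replicate 1 and 0.0974 without HRG replicate 2). The class II transactivator Ciita differed by 0.23 (adjusted p = 0.509), and none of 12 class I presentation genes passed, at a median of 0.15 with 11 of 12 higher. The class II count was 3 without basal replicate 2 or HRG replicate 1 and 4 without HRG replicate 2.

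B cells and dendritic cells also express class II. Of 11 B cell markers 6 rose, against 2.43% of all genes. All 11 were higher with HRG, with a median of 0.49, against 8714 of all 19938 genes. Cd79a, a chain of the B cell receptor complex, read 9.08 and 8.65 in the basal arrays and 10.09 and 9.62 in the HRG arrays, a rise of 0.98 ± 0.16 (1.98-fold, adjusted p = 0.00449). Ms4a1 (CD20) rose by 0.80 ± 0.15 and the IgM receptor Fcmr by 0.81 ± 0.17. Jchain, which joins IgM and IgA chains in plasma cells, rose from 5.39 and 5.43 to 6.80 and 6.61, by 1.30 ± 0.10 (2.46-fold, adjusted p = 5.23e-05). H2-Aa averaged 10.85 and Cd74 11.47 in the basal arrays at 6 h, above the basal arrays at 24 h, as did the B cell markers. Of 11 dendritic cell markers 2 rose, Itgax and the kynurenine enzyme Kmo (by 0.69 ± 0.14), at a median of 0.20, and their mean signal stood at 7.05 and 6.89 in the basal arrays against 7.42 and 7.17. The call was lost for Kmo (adjusted p = 0.173 without basal replicate 2 and 0.23 without HRG replicate 1), and the dendritic cell count was 1 without basal replicate 2 or HRG replicate 1 and 4 without HRG replicate 2. The part of B cell and dendritic cell RNA in the class II result was not tested. The marker calls were lost for Cd79a (adjusted p = 0.0703 without HRG replicate 1), Ms4a1 (adjusted p = 0.109 without basal replicate 2 and 0.171 without HRG replicate 1) and Fcmr (adjusted p = 0.163 without basal replicate 2 and 0.252 without HRG replicate 1), and the count of B cell markers was 0 without HRG replicate 1 and 1 without basal replicate 2.

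Mast cell markers gave 5 rises among 10, with a median of 0.57. Gata2, a transcription factor of mast cells and progenitors, read 8.39 and 8.41 in the basal arrays and 9.33 and 9.08 in the HRG arrays, a rise of 0.81 ± 0.11 (1.75-fold, adjusted p = 0.00128). Cpa3, a granule carboxypeptidase, stood at 10.27 and 10.84 against 11.73 and 11.33 and rose by 0.98 ± 0.18 (1.97-fold, adjusted p = 0.00956). Hdc, which makes histamine, rose by 0.70 ± 0.11, while the stem cell factor receptor Kit differed by 0.09 (adjusted p = 0.913). Here basal replicate 2 was nearer the HRG arrays for Cpa3, the reverse of the order seen for most falls. Single arrays ended the calls of Cpa3 (adjusted p = 0.0555 without basal replicate 1 and 0.159 without HRG replicate 1) and Hdc (adjusted p = 0.0592 without HRG replicate 1), and the count was 1 without HRG replicate 1 and 2 without basal replicate 1.

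Of 15 costimulatory and checkpoint ligands 6 rose and 1 fell. Tnfsf9 (4-1BB ligand) measured 8.87 and 8.94 in the basal arrays and 9.40 and 9.37 in the HRG arrays and rose by 0.48 ± 0.10 (1.40-fold, adjusted p = 0.0142), after a difference of -0.57 at 6 h (adjusted p = 0.0163). Tnfsf14 (LIGHT) rose from 9.02 and 8.18 to 9.79 and 9.50, by 1.05 ± 0.20 (2.06-fold, adjusted p = 0.0133). Tnfsf4 (OX40 ligand) fell from 6.34 and 7.38 to 5.37 and 5.54, by 1.41 ± 0.26 (2.65-fold, adjusted p = 0.0108). Cd86 and Cd83, maturation markers of antigen-presenting cells, rose by 0.52 ± 0.10 and 0.53 ± 0.10, and the checkpoint ligands Vsir and Lgals9 by 0.54 ± 0.10 and 0.59 ± 0.10. Cd80 and Cd274 (PD-L1) differed by 0.14 and -0.02 (adjusted p = 0.65 and 0.973). Each of the 7 lost its call in fits without single arrays: Tnfsf9 (adjusted p = 0.0826 without basal replicate 1, 0.0677 without basal replicate 2, 0.142 without HRG replicate 1 and 0.0774 without HRG replicate 2), Tnfsf14 (adjusted p = 0.0532 without basal replicate 2, difference 0.63 and 0.193 without HRG replicate 1), Tnfsf4 (adjusted p = 0.0528 without basal replicate 2, difference -0.89, 0.14 without HRG replicate 1 and 0.0594 without HRG replicate 2), Cd86 (adjusted p = 0.118 without basal replicate 2, 0.0778 without HRG replicate 1 and 0.115 without HRG replicate 2), Cd83 (adjusted p = 0.0874 without basal replicate 2, 0.118 without HRG replicate 1 and 0.077 without HRG replicate 2), Vsir (adjusted p = 0.0555 without basal replicate 1, 0.0701 without basal replicate 2, 0.142 without HRG replicate 1 and 0.0534 without HRG replicate 2) and Lgals9 (adjusted p = 0.056 without basal replicate 2 and 0.0697 without HRG replicate 1). The count of rises was 0 without basal replicate 2 or HRG replicate 1 and 2 without HRG replicate 2.

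Classical inflammatory cytokines mostly did not pass. Tnf differed by -0.02 (adjusted p = 0.982), Il1b by 0.15 (adjusted p = 0.688), Il1a by -0.07 (adjusted p = 0.903) and Il6 by -0.50 (adjusted p = 0.0716), and the anti-inflammatory Il10 by 0.75 (adjusted p = 0.0679). Of 26 cytokines 3 rose and 1 fell, with a median of 0.01, and the count of rises was 0 without HRG replicate 1, 1 without basal replicate 2 or HRG replicate 2 and 5 without 6 h basal replicate 1 or 6 h basal replicate 2. Il1f9, which encodes IL-36 gamma, was the second largest fall of all named genes, at 9.40 and 9.78 in the basal arrays and 7.32 and 7.28 in the HRG arrays and fell by 2.29 ± 0.14 (4.88-fold, adjusted p = 1.4e-05). The rises were Il18 (0.71 ± 0.14), the interleukin-1 receptor antagonist Il1rn (0.49 ± 0.10) and Tgfb2 (0.56 ± 0.13). None of the rises survived every left-out array: Il18 (adjusted p = 0.139 without basal replicate 2, 0.0588 without HRG replicate 1 and 0.158 without HRG replicate 2), Il1rn (adjusted p = 0.0616 without basal replicate 1, 0.115 without basal replicate 2, 0.158 without HRG replicate 1 and 0.0919 without HRG replicate 2) and Tgfb2 (adjusted p = 0.135 without basal replicate 1, 0.157 without basal replicate 2 and 0.391 without HRG replicate 1). Nos2 and Arg1, the enzymes that compete for arginine, differed by 0.22 and 0.27 (adjusted p = 0.443 and 0.228).

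Chemokines gave 9 rises and no fall among 26, with a median of 0.19. Ccl24 (eotaxin 2) read 8.04 and 7.66 in the basal arrays and 9.56 and 8.95 in the HRG arrays, a rise of 1.41 ± 0.18 (2.65-fold, adjusted p = 0.000978). Ppbp, the precursor of CXCL7 and otherwise a platelet gene, measured 9.51 and 9.18 against 10.70 and 10.75 and rose by 1.38 ± 0.11 (2.61-fold, adjusted p = 5.24e-05), while its platelet companion Pf4 differed by 0.11 (adjusted p = 0.795). Cxcl14 stood at 8.45 and 8.21 against 9.51 and 9.42, a rise of 1.13 ± 0.11 (2.19-fold, adjusted p = 0.000128). Ccl6 showed the largest rise of the family, from 11.17 and 10.28 to 12.20 and 12.11, by 1.43 ± 0.24 (2.69-fold, adjusted p = 0.00529), on basal arrays that lay far apart. The other 5 rises, of Ccl2, Ccl7, Ccl9, Ccl22 and Cxcl13, lay between 0.44 and 0.75, and each lost its call without HRG replicate 1. The call was lost for Ccl6 (adjusted p = 0.0772 without HRG replicate 1). The count was 3 without HRG replicate 1 and 5 without basal replicate 2 or HRG replicate 2.

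Of 14 chemokine receptors 5 rose. Cxcr4, the receptor for CXCL12, was the most precise, at 9.36 and 9.35 in the basal arrays and 10.31 and 10.39 in the HRG arrays, a rise of 1.00 ± 0.09 (2.00-fold, adjusted p = 0.00011). The decoy receptor Ackr3, which shares its ligand, rose by 0.78 ± 0.12, and Ccr6, Ccr1 and Ccrl2 by 0.78 ± 0.13, 0.57 ± 0.11 and 0.54 ± 0.12. Among receptors for microbial products 3 of 22 rose, against 2.43% of all genes. Tlr8, an endosomal RNA sensor, stood at 11.05 and 10.82 against 11.86 and 11.69, a rise of 0.84 ± 0.12 (1.79-fold, adjusted p = 0.00192). Fits without 1 array ended the calls of Ackr3 (adjusted p = 0.0586 without HRG replicate 1), Ccr6 (adjusted p = 0.0537 without basal replicate 2 and 0.0902 without HRG replicate 1), Ccr1 (adjusted p = 0.146 without basal replicate 2, 0.0762 without HRG replicate 1 and 0.121 without HRG replicate 2) and Ccrl2 (adjusted p = 0.152 without basal replicate 1, 0.0699 without basal replicate 2, 0.216 without HRG replicate 1 and 0.128 without HRG replicate 2). The receptor count was 1 without HRG replicate 1, 2 without basal replicate 2 and 3 without HRG replicate 2, and the Toll-like receptor count was 1 without HRG replicate 1.

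Of 29 interferon-stimulated genes measured 6 rose and none fell, against rises in 2.43% of all genes. All 29 were higher with HRG, with a median of 0.39, against 8714 of all 19938 genes. The members were read on the same arrays, so their signs are not independent. Irf7, which drives type I interferon, read 12.54 and 12.16 in the basal arrays and 12.95 and 12.82 in the HRG arrays, a rise of 0.54 ± 0.12 (1.45-fold, adjusted p = 0.0347). The call was lost for Irf7 (adjusted p = 0.313 without basal replicate 2, difference 0.35, 0.0546 without 6 h HRG replicate 1, 0.0546 without 6 h HRG replicate 2, 0.313 without HRG replicate 1 and 0.0991 without HRG replicate 2). Ifit3 differed by 0.77 with basal arrays of 9.77 and 8.81 and did not pass (adjusted p = 0.137). For these genes basal replicate 1 lay nearer the HRG arrays, and the count was 0 without basal replicate 2 or HRG replicate 1, 2 without HRG replicate 2 and 17 without basal replicate 1. All 12 interferon-gamma GTPase genes were higher as well, with a median of 0.39 and 3 rises, and that count was 0 without basal replicate 2 or HRG replicate 1, 1 without HRG replicate 2, 5 without 6 h basal replicate 1 or 6 h basal replicate 2 and 8 without basal replicate 1. The clearest single gene was Ifitm6, a membrane protein of the IFITM family, at 8.80 and 8.36 against 10.19 and 10.01, a rise of 1.52 ± 0.14 (2.88-fold, adjusted p = 0.000147). Ifi27l2a rose by 0.97 ± 0.15. Ifi213, a gene of the p200 family, rose by 1.28 ± 0.28. Its call was lost in fits without single arrays, as Ifi213 (adjusted p = 0.183 without basal replicate 2, difference 0.75, 0.319 without HRG replicate 1 and 0.0503 without HRG replicate 2). The count for the IFITM and p200 families, 4 of 12, was 2 without basal replicate 2 or HRG replicate 1 and 8 without basal replicate 1.

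Markers of alternative activation and of the smaller, monocyte-derived peritoneal macrophage rose in part. Alternative activation gave 9 rises and no fall among 24 markers, with a median of 0.35. Small peritoneal macrophages and monocytes gave 8 rises and no fall among 18 genes, with a median of 0.41. Both lists hold the called genes Folr2, F13a1 and Fn1, so the counts are not separate. Folr2, a folate receptor of macrophages, read 7.84 and 7.91 in the basal arrays and 9.18 and 8.84 in the HRG arrays, a rise of 1.13 ± 0.12 (2.19-fold, adjusted p = 0.000296). Tgm2, tissue transglutaminase, stood at 10.84 and 10.64 against 11.78 and 11.59 and rose by 0.94 ± 0.11 (1.92-fold, adjusted p = 0.000539). S100a4 rose from 7.63 and 7.55 to 8.37 and 8.61, by 0.90 ± 0.12 (1.87-fold, adjusted p = 0.00171). The classic markers Retnla and Chil3 differed by 0.31 and 0.39 (adjusted p = 0.339 and 0.184). Of 22 genes of large resident macrophages 3 rose and 2 fell. The rises were Vsig4 (2.10), Timd4 and Tgfb2, all described above. The falls were F5, whose call was lost without single arrays, and Ednrb, the endothelin B receptor. Ednrb fell from 13.18 and 13.29 to 12.50 and 12.36, by 0.81 ± 0.10 (1.75-fold, adjusted p = 0.000674). Gata6, the factor that defines the resident cell, differed by 0.37 (adjusted p = 0.0795) and the growth factor receptor Csf1r by -0.01 (adjusted p = 0.993). The counts of rises were 5 without HRG replicate 1 for alternative activation, 4 without HRG replicate 1 for small macrophages and 1 without HRG replicate 1 for large ones.

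Proteins of the matrix and of clotting were among the larger rises. Olfml3, a secreted olfactomedin-like protein, read 8.36 and 7.99 in the basal arrays and 9.88 and 9.73 in the HRG arrays, a rise of 1.63 ± 0.13 (3.09-fold, adjusted p = 5.23e-05). Sparc, a matrix glycoprotein, measured 8.27 and 8.80 against 10.07 and 9.87 and rose by 1.44 ± 0.17 (2.71-fold, adjusted p = 0.000526). F13a1, the factor XIII chain that cross-links fibrin, stood at 10.69 and 10.19 against 11.91 and 11.82, a rise of 1.42 ± 0.15 (2.68-fold, adjusted p = 0.000303). Procr, the receptor for protein C, fell from 12.10 and 12.60 to 11.01 and 11.08, by 1.31 ± 0.14 (2.47-fold, adjusted p = 0.000397). Of 25 matrix genes 5 rose, and of 19 clotting and fibrinolysis genes 5 rose and 2 fell, against 2.43% and 1.05% of all genes. Fibronectin (Fn1), biglycan (Bgn), tissue factor (F3) and thrombomodulin (Thbd) rose by 0.67 ± 0.10, 0.89 ± 0.20, 0.81 ± 0.12 and 0.76 ± 0.13, with calls lost for Fn1 (adjusted p = 0.0575 without HRG replicate 1), Bgn (adjusted p = 0.175 without basal replicate 1 and 0.315 without HRG replicate 1, difference 0.57), F3 (adjusted p = 0.0596 without HRG replicate 1) and Thbd (adjusted p = 0.11 without HRG replicate 1). Thbs1, the thrombospondin that HRG binds, differed by -0.03 (adjusted p = 0.968) and plasminogen (Plg) by 0.08 (adjusted p = 0.881). The counts of rises were 2 without HRG replicate 1 for matrix and 1 without HRG replicate 1 and 3 without basal replicate 2 for clotting.

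Proteases and their inhibitors rose side by side, 7 of 22 with a median of 0.15. Timp3 measured 6.46 and 6.65 in the basal arrays and 7.66 and 7.82 in the HRG arrays and rose by 1.18 ± 0.11 (2.27-fold, adjusted p = 0.000177). Timp1, also an inhibitor of metalloproteases, stood at 8.58 and 8.62 against 9.61 and 9.47, a rise of 0.94 ± 0.09 (1.92-fold, adjusted p = 0.000197). Mmp9, the gelatinase, rose from 10.28 and 10.41 to 11.20 and 11.10, by 0.80 ± 0.10 (1.74-fold, adjusted p = 0.00068). Serpinb10, an intracellular protease inhibitor, read 7.46 and 7.20 against 8.91 and 8.75, a rise of 1.501 ± 0.19 (2.83-fold, adjusted p = 0.000978), while Serpinb1b averaged 7.19 in the basal and 6.01 in the HRG arrays and fell by 1.18 ± 0.16 (2.27-fold, adjusted p = 0.00137). The protease count was 3 without HRG replicate 1 and 4 without basal replicate 1. Heparan sulphate proteoglycans and their enzymes, which hold HRG at cell surfaces, gave 3 rises among 22, and that count was 0 without basal replicate 1 or HRG replicate 1. Sdc4, a syndecan, differed by 0.23 (adjusted p = 0.284). The gene for HRG itself was dim in every array, at 4.62 and 4.39 against 4.36 and 4.43 (adjusted p = 0.836), and did not pass.

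Receptors and enzymes for extracellular nucleotides gave 6 rises and no fall among 16, with a median of 0.25. P2ry6, the receptor for UDP, read 10.24 and 10.21 in the basal arrays and 11.35 and 11.20 in the HRG arrays, a rise of 1.05 ± 0.10 (2.08-fold, adjusted p = 0.000147), and had risen by 0.99 at 6 h (adjusted p = 0.00164). Entpd1 (CD39), which degrades ATP, measured 10.79 and 10.57 against 11.44 and 11.41 and rose by 0.75 ± 0.11 (1.68-fold, adjusted p = 0.0023). Nt5e (CD73), which makes adenosine, rose by 0.60 ± 0.10, and the ADP and UDP-sugar receptors P2ry12, P2ry13 and P2ry14 by 0.79 ± 0.13, 0.87 ± 0.14 and 0.54 ± 0.09. These 4 lost the call without single arrays: Nt5e (adjusted p = 0.0874 without basal replicate 2 and 0.118 without HRG replicate 1), P2ry12 (adjusted p = 0.0635 without basal replicate 2 and 0.0695 without HRG replicate 1), P2ry13 (adjusted p = 0.084 without HRG replicate 1) and P2ry14 (adjusted p = 0.0875 without HRG replicate 1). The count was 2 without HRG replicate 1. Of 23 integrins and adhesion genes 4 rose, against 2.43% of all genes. Itga9, a receptor for tenascin and osteopontin, stood at 9.83 and 9.84 against 10.73 and 10.45, a rise of 0.76 ± 0.11 (1.69-fold, adjusted p = 0.00192).

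In metabolism, single enzymes stood out. Gatm, which performs the first step of creatine synthesis, was the second largest rise of all, at 7.43 and 7.12 in the basal arrays and 9.44 and 9.41 in the HRG arrays, a rise of 2.15 ± 0.12 (4.43-fold, adjusted p = 1.17e-05), and it had already risen by 1.56 at 6 h (adjusted p = 0.00022). Its partner Gamt rose by 0.55 ± 0.10 and the creatine kinase Ckb by 0.69 ± 0.09. Slc6a9, the glycine transporter GlyT1, fell from 11.07 and 11.59 to 9.27 and 9.12, by 2.14 ± 0.16 (4.39-fold, adjusted p = 4.52e-05). It was the 1 fall among 20 amino acid transporters. The 3 rises there, of Slc7a8, Slc7a7 and Slc36a1, lost their calls without single arrays. Fabp5 and Fabp4, carriers of fatty acids, rose by 1.08 ± 0.13 (2.12-fold, adjusted p = 0.000625) and 0.79 ± 0.11 (1.73-fold, adjusted p = 0.00187). The desaturase Scd1 rose by 1.06 ± 0.14 (2.08-fold, adjusted p = 0.00107). They were the 3 rises among 30 genes of fatty acid handling, whose median was 0.02. The 2 falls there were Lipa and Acaca, with calls lost without single arrays. Acss2, which makes cytosolic acetyl-CoA from acetate, went from 9.01 and 9.58 to 8.09 and 7.84 and fell by 1.33 ± 0.16 (2.51-fold, adjusted p = 0.000602). Pcx, pyruvate carboxylase, read 8.87 and 9.49 against 8.11 and 7.97 and fell by 1.13 ± 0.16 (2.19-fold, adjusted p = 0.00247). Slc40a1 (ferroportin), the iron exporter, fell from 7.82 and 9.17 to 6.86 and 6.79, by 1.67 ± 0.30 (3.18-fold, adjusted p = 0.00879). Dependence on single arrays was found for Gamt (adjusted p = 0.0596 without HRG replicate 1 and 0.0593 without HRG replicate 2) and Slc40a1 (adjusted p = 0.00981 without basal replicate 2, difference -0.997, 0.0919 without HRG replicate 1 and 0.0748 without HRG replicate 2).

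The integrated stress response, which raises amino acid synthesis when supply is short, gave 5 falls and no rise among 22, with a median of -0.22. Trib3, a pseudokinase target of ATF4 and CHOP, measured 9.31 and 9.42 in the basal arrays and 8.47 and 8.49 in the HRG arrays and fell by 0.89 ± 0.12 (1.85-fold, adjusted p = 0.00135). At 6 h it had differed by -1.06 (adjusted p = 0.00275). By then 10 of the 22 had fallen, against 163 of all 19938 genes, so the list held more falls at the earlier time. Asns, asparagine synthetase, and Mthfd2, a mitochondrial folate enzyme, fell by 0.75 ± 0.13 and 0.52 ± 0.12, with calls lost for Asns (adjusted p = 0.0741 without basal replicate 2 and 0.12 without HRG replicate 1) and Mthfd2 (adjusted p = 0.241 without basal replicate 2, 0.21 without HRG replicate 1 and 0.151 without HRG replicate 2). The count at 24 h was 1 without basal replicate 2 or HRG replicate 1 and 2 without HRG replicate 2. None of 20 ER chaperones passed, at a median of -0.05.

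Cell cycle genes were higher in 26 of 27, with a median of 0.22, against 8714 of all 19938 genes. Of the 27, 6 rose, against 2.43% of all genes. Rrm2, which supplies deoxynucleotides, read 6.46 and 6.53 in the basal arrays and 7.17 and 7.43 in the HRG arrays, a rise of 0.81 ± 0.12 (1.75-fold, adjusted p = 0.00302). Ccna2 (cyclin A2) measured 6.64 and 6.52 against 7.49 and 7.21 and rose by 0.78 ± 0.11 (1.71-fold, adjusted p = 0.0024). The mitotic genes Mki67, Top2a and Plk1 rose by 0.63 ± 0.12, 0.72 ± 0.12 and 0.69 ± 0.14, with calls lost for Mki67 (adjusted p = 0.12 without basal replicate 2, 0.117 without HRG replicate 1 and 0.0707 without HRG replicate 2), Top2a (adjusted p = 0.0544 without basal replicate 2 and 0.0772 without HRG replicate 1) and Plk1 (adjusted p = 0.169 without basal replicate 2 and 0.226 without HRG replicate 1). A second Top2a row, dimmer at a mean of 3.37, differed by -0.01 (limma, adjusted p = 0.992 over all rows). The Top2a call was also lost with the mean of the gene's rows. Cdkn2b, which encodes the inhibitor p15, fell from 9.24 and 10.02 to 8.56 and 8.55, by 1.08 ± 0.18 (2.11-fold, adjusted p = 0.00622). Its value or call moved without single arrays, as Cdkn2b (adjusted p = 0.014 without basal replicate 2, difference -0.69, 0.075 without HRG replicate 1 and 0.0532 without HRG replicate 2). The count of rises was 2 without basal replicate 2 or HRG replicate 1. Which cells carry these transcripts was not tested.

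Genes that restrain cytokine signals, among them the SOCS proteins, gave 7 rises and no fall among 25, with a median of 0.26. Zfp36 (tristetraprolin), which destabilises cytokine messages, measured 10.25 and 10.32 in the basal arrays and 10.81 and 10.75 in the HRG arrays and rose by 0.49 ± 0.09 (1.41-fold, adjusted p = 0.0108). Socs2 rose by 0.71 ± 0.14 on its brightest row, while its other row differed by 0.39 and did not pass (adjusted p = 0.192 over all rows). The call was lost for Zfp36 (adjusted p = 0.0638 without basal replicate 1, 0.0578 without basal replicate 2, 0.126 without HRG replicate 1 and 0.0551 without HRG replicate 2) and Socs2 (adjusted p = 0.128 without basal replicate 2, 0.164 without HRG replicate 1 and 0.0556 without HRG replicate 2). That count was 0 without HRG replicate 1, 1 without basal replicate 2 and 2 without basal replicate 1 or HRG replicate 2. Of 31 lysosomal genes 3 rose, against 2.43% of all genes. The protease legumain (Lgmn) stood at 12.29 and 12.20 against 12.89 and 12.83, a rise of 0.62 ± 0.09 (1.53-fold, adjusted p = 0.0035). Its call was lost in 1 or more fits, as Lgmn (adjusted p = 0.0592 without HRG replicate 1), and the lysosomal count was 1 without HRG replicate 1. Of 19 genes of prostaglandins and leukotrienes 3 rose and 1 fell, the prostaglandin E2 receptor Ptger2, which read 8.37 and 8.60 against 7.62 and 7.58 and fell by 0.89 ± 0.10 (1.85-fold, adjusted p = 0.000465). The count of rises there was 0 without basal replicate 2 or HRG replicate 1.

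The remaining genes of the largest changes belong to no single group. Vdr, the vitamin D receptor, read 7.19 and 6.75 in the basal arrays and 8.42 and 8.23 in the HRG arrays, a rise of 1.35 ± 0.13 (2.56-fold, adjusted p = 0.000192). Rgs2, which damps signalling through Gq, measured 8.10 and 7.97 against 9.50 and 9.24 and rose by 1.33 ± 0.11 (2.52-fold, adjusted p = 5.23e-05). Cd52, a small surface glycoprotein of leukocytes, stood at 10.31 and 9.91 against 11.45 and 11.44, a rise of 1.33 ± 0.12 (2.51-fold, adjusted p = 0.000118). Tmem176a rose by 1.25 ± 0.11 (2.38-fold, adjusted p = 7.15e-05), Nxpe5 by 1.496 ± 0.20 (2.82-fold, adjusted p = 0.0013) and the endogenous retroviral gene Erv3 by 1.31 ± 0.15 (2.48-fold, adjusted p = 0.00058). Among falls, Eid3 went from 9.73 and 9.37 to 8.07 and 7.72, by 1.65 ± 0.16 (3.15-fold, adjusted p = 0.000192), with basal replicate 1 the higher of the basal arrays, unlike in most falls. The long noncoding RNA Mirt2 fell by 1.40 ± 0.10 (2.64-fold, adjusted p = 4.52e-05) and Ppfibp2, a liprin, by 1.17 ± 0.12 (2.25-fold, adjusted p = 0.00022). Unc5b, a netrin receptor, fell from 8.59 and 9.48 to 7.81 and 7.70, by 1.28 ± 0.21 (2.43-fold, adjusted p = 0.00527). Its value or call moved without single arrays, as Unc5b (adjusted p = 0.0127 without basal replicate 2, difference -0.84, 0.0594 without HRG replicate 1 and 0.0541 without HRG replicate 2). The immediate early gene Fos, last, rose from 8.45 and 8.52 to 9.46 and 9.40, by 0.94 ± 0.10 (1.92-fold, adjusted p = 0.00022).

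The 24 h response was set against the 6 h response, which uses other basal arrays. At 6 h 86 genes rose and 163 fell. Of the 485 genes that rose at 24 h 43 had risen at 6 h, which is 8.87% of the 24 h rises and 50% of the 6 h rises, and 16 genes fell at both times, 7.66% of the 24 h falls and 9.82% of the 6 h falls. Called at 24 h but not at 6 h does not show that the effects differ, so the difference itself was tested. It passed as higher at 24 h in 204 genes and as lower in 90 (limma, adjusted p under 0.05), 1.02% and 0.451% of those tested. Of the genes that rose at 24 h 138 (28.5%) also had the larger effect there by this test, and of those that fell 75 (35.9%) had the lower one. Gatm, Olr1 and P2ry6 changed at both times, and the difference of their effects was 0.59, -0.49 and 0.06 (adjusted p = 0.137, 0.147 and 0.93). C1qc differed by 0.58 at 6 h (adjusted p = 0.218), and its 24 h effect was larger by 1.78 (adjusted p = 0.00824), or by 1.71 without HRG replicate 1 (adjusted p = 0.0616). The counts of the difference were as low as 28 higher and 28 lower without HRG replicate 1 of 24 h. They were 107 and 34 without HRG replicate 2, 86 and 42 without basal replicate 2, 265 and 139 without basal replicate 1, 79 and 41 without the first and 50 and 38 without the second HRG array of 6 h, and 104 and 92 without the first basal array of 6 h.

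**Figure D5:**
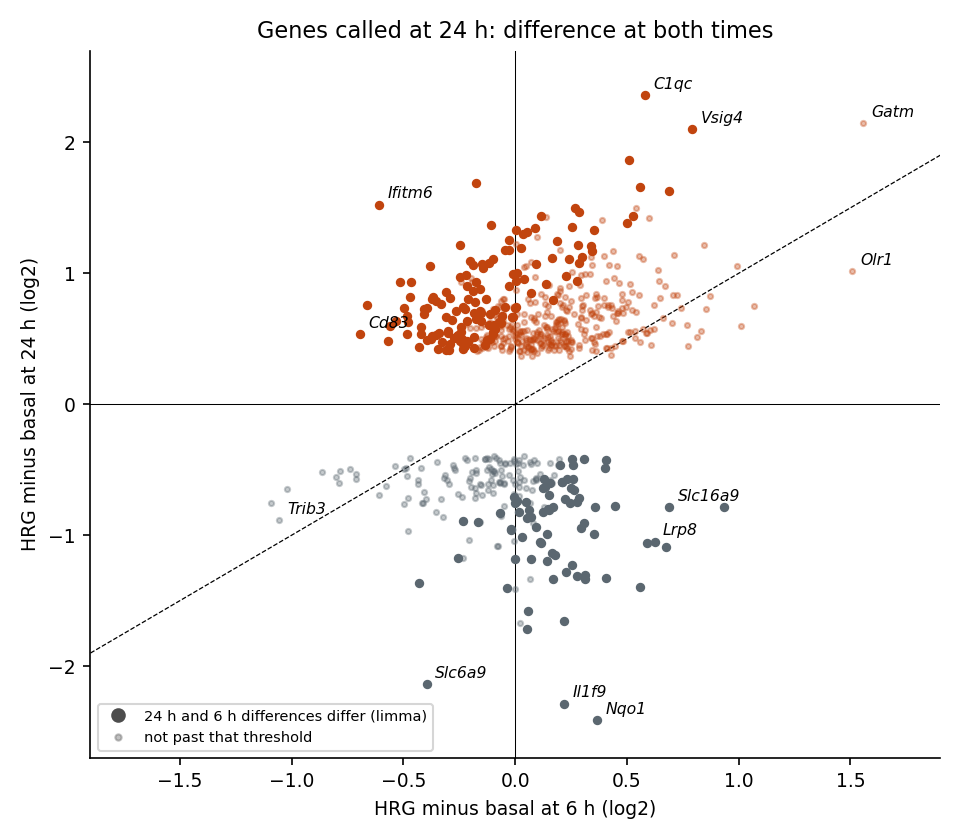
Log2 difference between HRG and basal arrays at 6 h (x axis) and 24 h (y axis) for the 694 genes called at 24 h, 1 point per gene, red for rises and grey for falls; full-strength points passed the test that the differences at 6 and 24 h differ, and the dashed line marks equal differences. Gatm and Olr1 lie far to the right at 1.56 and 1.51, C1qc and Vsig4 high above the line, and Slc16a9 and Lrp8 in the quadrant of genes that rose at 6 h and fell at 24 h.

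Only 7 genes passed at both times with opposite signs, and they are named because their values were seen to do so. Slc16a9, a carnitine and creatine transporter, averaged 9.52 basal and 10.21 with HRG at 6 h, and read 9.81 and 9.85 against 9.05 and 9.04 at 24 h, so that a difference of 0.69 became -0.79. A second Slc16a9 row, dimmer at a mean of 4.49, differed by -0.23 at 24 h and did not pass (limma, adjusted p = 0.499 over all rows). Lrp8, a lipoprotein and reelin receptor, went from 0.62 to -1.05 and Fam13a from 0.94 to -0.78. The 4 others fell first and rose later: Cd83 from -0.69 to 0.53, Tnfsf9 from -0.57 to 0.48, Sema7a, a semaphorin, from -0.48 to 0.54 and Stat4, the mediator of interleukin 12 signals, from -0.56 to 0.60. The adjusted p at 24 h was 0.000507 for Slc16a9, 0.000216 for Lrp8, 0.00622 for Sema7a and 0.0141 for Stat4. Without single arrays the 24 h call was lost for Cd83 (adjusted p = 0.0874 without basal replicate 2, 0.118 without HRG replicate 1 and 0.077 without HRG replicate 2), Fam13a (adjusted p = 0.133 without basal replicate 2 and 0.152 without HRG replicate 2), Tnfsf9 (adjusted p = 0.0826 without basal replicate 1, 0.0677 without basal replicate 2, 0.142 without HRG replicate 1 and 0.0774 without HRG replicate 2), Sema7a (adjusted p = 0.0926 without HRG replicate 1) and Stat4 (adjusted p = 0.151 without basal replicate 2 and 0.198 without HRG replicate 1).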

How the data were processed

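Whole-transcript arrays of 2 replicates in each of 4 groups were read from the deposited value table. The authors' deposited values are log2 signals after RMA, made with Affymetrix Expression Console per the submitters' processing notes, which also name limma. Their versions were not stated. Array medians lay between 7.18 and 7.29, and values were not normalized again.

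Of 28853 rows, 21789 carried 1 gene symbol in the platform annotation, 1621 several and 5443 none. The brightest row stood for a gene with several (999 genes), leaving 19938 genes, named through RefSeq where possible. limma 3.58.1 in R 4.3.3 fitted the 4 group means to all 8 arrays with empirical Bayes moderation. Adjusted p is Benjamini-Hochberg over all genes, called under 0.05, and ± is the standard error. The fit was checked on simulated data.

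Genes are named by rule: the 25 largest called, non-overlapping changes each way (without predicted genes, small RNAs, chemosensory receptors and antigen receptor segments), up to 6 genes per list, the 8 largest differences of effects each way, marker genes and 18 fixed genes. Other list members and the genes of opposite sign were chosen after their values were seen. The 51 lists (969 of 1053 entries measured) and all members were chosen with earlier results of these data known. Alternatives were a replicate block, variance model, normalization, centring, dim-gene filter, row choice, minimum fold, arrays fitted, a covariate and single arrays left out.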

Additional observations from a re-analysis of the deposited data

Results flagged for a closer look

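Every gene listed here had an effect of HRG at 24 h that differed from its effect at 6 h by a test of the difference itself (limma's interaction contrast, adjusted p under 0.05 over 19938 genes). That test passed as higher in 204 genes and as lower in 90. The genes listed are those among the largest 24 h changes or the largest differences of effects. Genes chosen for a large 24 h change pass more readily, because the test uses the same 24 h arrays. The values are the log2 effect at 24 h minus that at 6 h. Both effects are taken against basal arrays of their own time, so that a change in the basal cells between the times enters the value as much as one in the treated cells. What lies behind any of them was not tested. Of these 45 genes 23 passed in every fit that left out 1 array: Acss2, Cd52, Eid3, Ephx1, Fam13a, Fcgr4, Gclc, Gss, Ifitm6, Il1f9, Jchain, Me1, Mirt2, Mrc1, Mrgprb2, Nqo1, Pir, Procr, Ptgr1, Scd1, Slc6a9, Srxn1 and Tmem176a. Of all 45, 24 passed without HRG replicate 1 and 33 without HRG replicate 2 of 24 h, 30 without HRG replicate 2 and 34 without HRG replicate 1 of 6 h, 39 without basal replicate 2 of 24 h, 44 without basal replicate 1 of 24 h, and 43 in each fit without 1 of the basal arrays of 6 h.

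Among complement and Fc receptor genes the value was 1.78 for C1qc, 1.36 for C1qa, 1.10 for C1qb, 1.31 for Vsig4 and 1.25 for Fcgr4. Other surface receptors with a larger effect at 24 h were Mrc1 (1.19), Trem1 (0.91), Adgre4 (1.48), Cd52 (1.33) and the mast cell receptor Mrgprb2 (1.45). Secreted and matrix proteins were Olfml3 (0.94), Sparc (1.32) and Ppbp (0.88). Genes of lymphocytes were Jchain (1.26) and the T cell receptor chain Cd3g (1.48). The others were Ifitm6 (2.13), Serpinb10 (1.23), Vdr (1.10), Rgs2 (0.98), Erv3 (1.26), Tmem176a (1.28), the desaturase Scd1 (1.44) and the BCL2 relative Bcl2a1c (1.42). The difference with HRG was -0.38 at 6 h and 1.06 at 24 h for Scd1, and -1.11 and 0.37 for Cd3g.

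Among NRF2 targets and glutathione genes the value was -2.78 for Nqo1, -1.77 for Pir, -1.64 for Akr1b8, -1.65 for Cbr3, -1.5 for Ephx1, -1.25 for Ptgr1, -1.48 for Srxn1, -1.34 for Gclc, -1.33 for Gss and -1.59 for Me1. Enzymes and carriers of metabolism were Slc6a9 (-1.74), Acss2 (-1.74) and Pcx (-1.30). Surface and secreted proteins were Il1f9 (-2.51), Treml4 (-1.96), Procr (-1.62) and Unc5b (-1.51). The rest were Eid3 (-1.88), Mirt2 (-1.37), Serpinb1b (-1.18), Ppfibp2 (-0.92) and Fam13a (-1.72). Il1f9 had differed by 0.22 at 6 h (adjusted p = 0.643), and its basal arrays averaged 8.27 at 6 h and 9.59 at 24 h, against 8.49 and 7.30 with HRG.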

How the results depend on the processing

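The 6 counts of genes at 24 h and of the difference of effects were recomputed under 9 alternatives and without each of the 8 arrays. Testing against a minimum fold of 1.5 left 22 rises and 10 falls, all of them 2-fold or more, and a difference of effects in 1 gene towards higher and 5 towards lower, by its own construction. An array covariate, the lower quartile, gave 646 rises and 453 falls, which held all 485 and 209 of the main counts, and 215 genes with a lower effect at 24 h. A trended and robust variance model gave 392 genes higher and 155 lower for the difference of effects. For these 2 alternatives the cause was not tested. With single arrays left out, rises ranged from 110 to 536, falls from 72 to 252, rises of 2-fold or more from 44 to 102, falls of 2-fold or more from 18 to 57, and the difference of effects from 28 to 265 higher and 28 to 139 lower. The lone array left in such a group is assumed to vary like the other groups. The groups share replicate numbers, but the labels do not say that equal numbers mark a shared preparation. Deviations of same-numbered arrays correlated at 0.24 to 0.41 among the basal and HRG arrays of 6 h and the HRG arrays of 24 h, and at -0.33 to -0.20 between each of these and the basal arrays of 24 h, so the numbers were not taken as pairs. With the replicate block the counts were 510 and 215, with 67 and 36 of 2-fold or more, and 261 and 101 for the difference. With the numbers of the basal arrays at 24 h swapped, a pairing chosen after seeing the data, the block gave 715 and 368, with 66 and 36 of 2-fold or more, and 424 and 180 for the difference. Of the 50 genes with the largest changes 42 kept their call under every alternative but the minimum fold, which 26 passed, and the swapped block, which was run for counts only. Of all 236 named genes that passed 87 kept their call under those alternatives. No named gene that passed changed direction in the alternatives run for genes. The number of arrays, 2 a group, limits what can be detected.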
